A study of Mus musculus with 9 samples.

Results

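The genes described here are 9 markers and regulators of neuron production in the embryonic cortex: Eomes, Neurog1, Neurog2, Insm1, Neurod1, Neurod4, Btg2, Gadd45g and Nhlh1. They were chosen by gene identity, as a list of Ensembl identifiers, with earlier results of these data known. All 9 were present among the 12188 genes of the deposited table. The gene names are those that the list pairs with its identifiers. The tissue was the dorsal telencephalon, the forebrain wall from which the cerebral cortex develops, taken from mouse embryos at E13.5. RNA of each embryo was hybridised to 1 Affymetrix array, which gave 5 arrays of conditional Dicer knockouts (numbered 5, 7, 9, 10 and 11) and 4 arrays of controls (numbered 1 to 4).

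Dicer is an enzyme needed to make mature microRNAs, and the labels describe the knockout tissue as depleted of microRNAs and the control tissue as not depleted. The strain is given as C57Bl6/J for both groups. The titles of the controls begin with HTZ, whose meaning is not spelled out, so the controls are not taken to be wild type. The driver of the conditional deletion and the cells in which it acts are not named in the labels. All 5 knockouts were labelled male, whereas controls 1 and 2 were labelled female and controls 3 and 4 male. The embryos were partly littermates, with no assignment to litters, and the tests treat them as independent.

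In the developing cortex, radial glia divide at the ventricle and give rise to neurons either directly or through intermediate progenitors, which divide away from the ventricle and produce most projection neurons. The proneural factors Neurog1 and Neurog2, of the basic helix-loop-helix (bHLH) family, start this course in radial glia. Eomes (also called Tbr2) and Insm1 mark and promote the intermediate progenitor state, and Neurod1, Neurod4 and Nhlh1 are bHLH factors that act later in the same sequence. Btg2 (also called Tis21) restrains proliferation and is known as a mark of progenitors that are about to make neurons, and Gadd45g is a growth-arrest gene that is switched on along with them.

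Values were read on the log2 scale of the deposited table, on which 1 unit is a 2-fold difference. Array medians lay between 7.61 and 7.75. Over all genes, 2997 of 12188 (24.6%) had a Benjamini-Hochberg adjusted p under 0.05 in a two-sided limma test of knockouts against controls, which is the threshold used throughout. Control 4 stood apart: over all genes its deviation from the group mean was 0.297 log2 units (root mean square), against 0.132 to 0.162 for controls 1 to 3. Results that rest on control 4 are therefore given with and without it. Among the knockouts, knockout 5 had the largest such deviation, 0.219 log2 units, against 0.133 to 0.171 for the others. The sex label of control 3 is in doubt, as described below, so fits without control 4 may set male knockouts against female controls only. The level of Dicer itself and of other tissue or cell type markers was not analysed here, because the remaining identifiers could not be paired with names. The labels of genotype and tissue were therefore not checked against marker genes, and the number of arrays limits the precision.

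Of the 9 genes, Btg2 alone passed the threshold, and it was higher in the knockout. The share of 1 in 9 is below the 24.6% of all genes that were called in this comparison. With array weights in limma, which give less weight to arrays far from their group, 4 of the 9 passed (Btg2, Neurog2, Gadd45g and Nhlh1) where 37.4% of all genes did. The other 8 genes had overlapping groups and differences between -0.28 and 0.30 log2 units, of which 4 were positive and 4 negative. The median difference over the 9 genes was 0.18 log2 units, beside -0.02 over all genes. Without control 4 the median over the 9 genes turned to -0.12, beside -0.01 over all genes, and of the 8 genes other than Btg2 3 differences were positive and 5 negative. The arrays hold RNA of whole tissue, in which fewer cells of a type and less RNA per cell cannot be told apart.

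**Figure D1:**
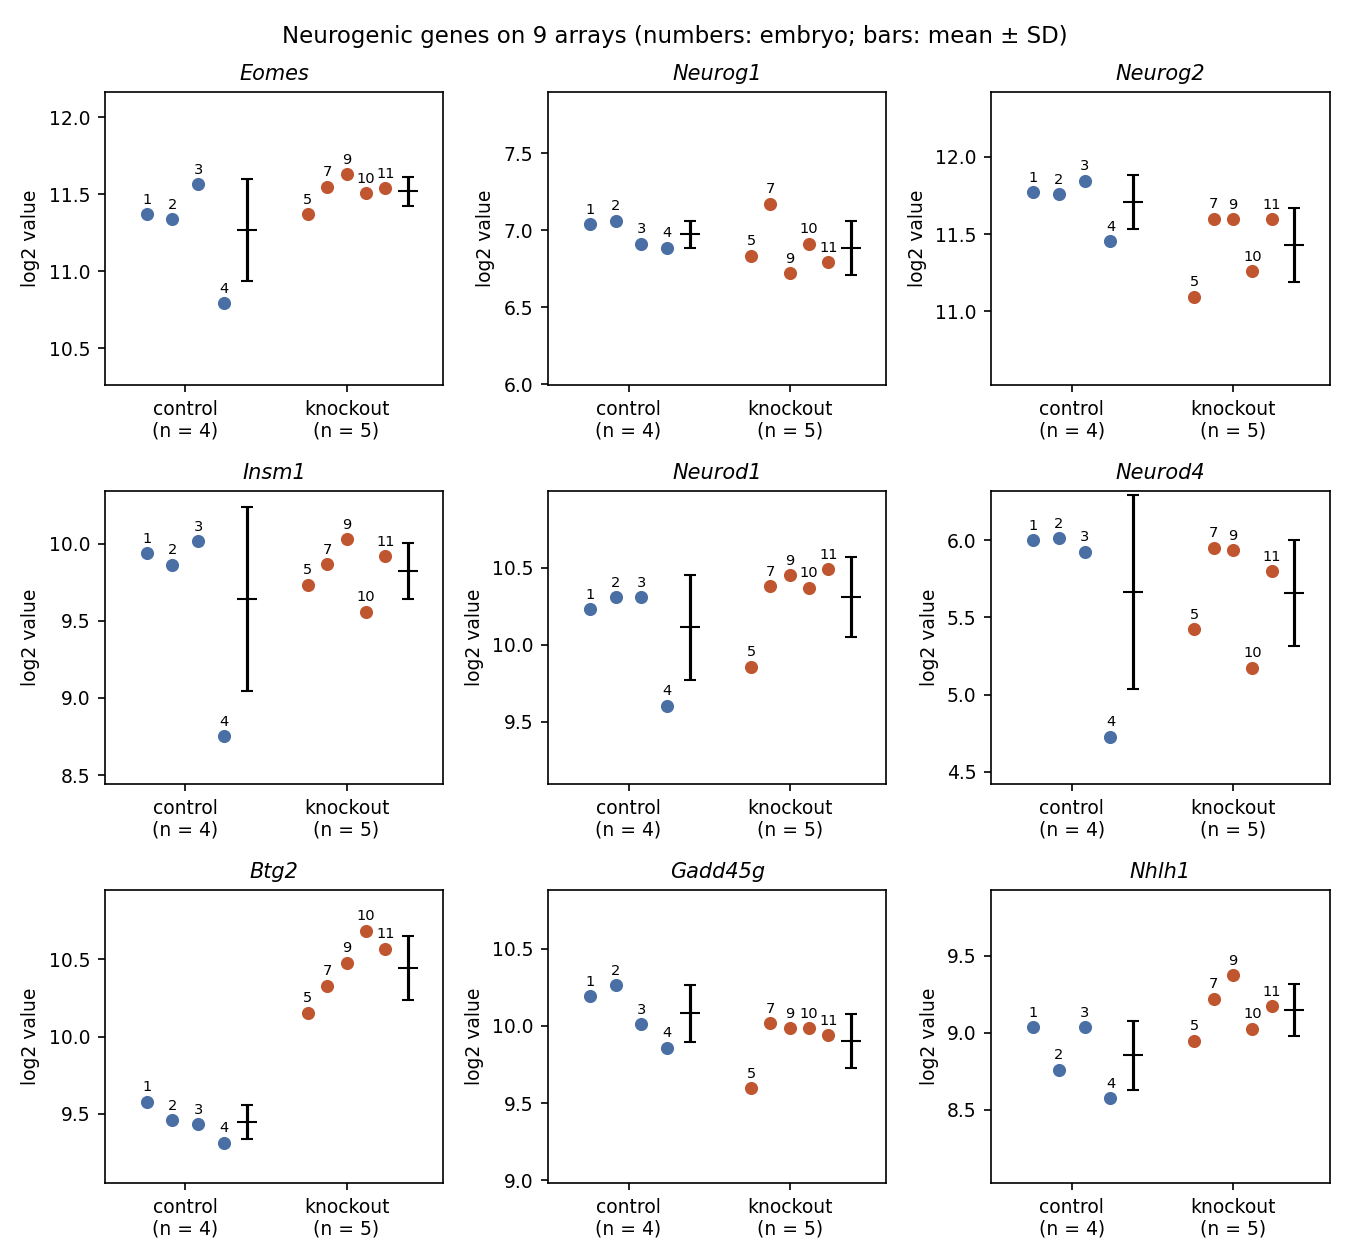
Log2 value (vertical axis, each panel spanning the same number of log2 units) of the 9 genes on each array, with controls in blue and Dicer knockouts in orange, numbered by embryo, and the mean ± SD of each group in black. For Btg2 every knockout lies above every control, whereas the groups overlap for the other 8 genes and control 4 is the lowest control in each panel.

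Btg2 (ENSMUSG00000020423_at), a member of the BTG/TOB family of antiproliferative proteins, rose about 2-fold. Its log2 values in controls 1 to 4 were 9.58, 9.46, 9.43 and 9.31. In knockouts 5, 7, 9, 10 and 11 they were 10.15, 10.33, 10.48, 10.69 and 10.57. The groups did not overlap, and a gap of 0.58 log2 units separated the lowest knockout (knockout 5) from the highest control (control 1). Such a separation was found for 24.1% of all genes.

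The mean of Btg2 was 10.44 ± 0.21 (SD, n = 5) in the knockouts and 9.45 ± 0.11 (SD, n = 4) in the controls. The difference was 0.998 log2 units (SE 0.11, 95% interval 0.76 to 1.24), or 2-fold with an interval of 1.69-fold to 2.36-fold, with a limma adjusted p of 0.000722. An exact permutation test of Btg2 over the 126 splits of the arrays gave p = 0.00794 (two-sided), the smallest that these splits allow. That value restates the separation of the groups given above and is no further support. Only 69 of the 12188 genes had a larger positive difference. Without control 4 the difference was 0.95 log2 units (limma adjusted p = 0.000934).

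The promoter of Btg2 is shown because this was the member that changed. The window runs from 250 bases before to 50 bases from the annotated start of the gene (RefSeq, GRCm38.p6, chr1:134079106-134079405, minus strand). Both strands were searched for the E-box CANNTG, which bHLH factors bind, for CCAAT and for the cyclic AMP response element TGACGTCA, and matches are in capitals.
Btg2: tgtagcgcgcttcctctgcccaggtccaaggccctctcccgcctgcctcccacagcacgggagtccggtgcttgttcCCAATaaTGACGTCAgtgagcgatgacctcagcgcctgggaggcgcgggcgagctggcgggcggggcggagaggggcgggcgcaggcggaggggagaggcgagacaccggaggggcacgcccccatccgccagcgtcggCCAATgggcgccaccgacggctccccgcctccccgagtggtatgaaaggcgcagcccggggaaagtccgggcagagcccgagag
The window holds TGACGTCA with its first base at -166, CCAAT at -173 and -34, and no CANNTG. TGACGTCA occurs in 1.79% of the 32851 promoter windows of the same length in the RefSeq table, CCAAT in 37.4% and CANNTG in 72.3%. A match describes the letters of the window and says nothing of binding in these embryos.

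Eomes (ENSMUSG00000032446_at), the T-box factor that defines cortical intermediate progenitors, did not pass the threshold. Its log2 values were 11.37, 11.34, 11.56 and 10.79 in controls 1 to 4. In knockouts 5, 7, 9, 10 and 11 they were 11.37, 11.55, 11.63, 11.51 and 11.54. The knockouts lay close together and within the range of controls 1 to 3, except for knockout 9, which was above every control.

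The mean of Eomes was 11.52 ± 0.10 (SD, n = 5) in the knockouts and 11.27 ± 0.33 (SD, n = 4) in the controls. The difference of 0.25 log2 units had a 95% interval of -0.05 to 0.56 (limma adjusted p = 0.212). Set against controls 1 to 3, it was 0.10 log2 units with an interval of -0.09 to 0.28 (limma adjusted p = 0.438).

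The promoter of Eomes is shown as that of the defining gene of the intermediate progenitor, for comparison with Btg2 (RefSeq, GRCm38.p6, chr9:118477939-118478238, plus strand).
Eomes: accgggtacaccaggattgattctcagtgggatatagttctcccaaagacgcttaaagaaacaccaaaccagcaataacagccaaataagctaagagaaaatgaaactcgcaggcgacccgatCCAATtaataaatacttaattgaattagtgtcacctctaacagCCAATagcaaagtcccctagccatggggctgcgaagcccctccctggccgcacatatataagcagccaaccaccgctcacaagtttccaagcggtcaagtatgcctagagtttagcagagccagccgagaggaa
It holds CCAAT at -127 and -84, and neither CANNTG nor TGACGTCA.

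Insm1 (ENSMUSG00000068154_at), a zinc-finger factor that promotes the formation of intermediate progenitors, had log2 values of 9.94, 9.86, 10.02 and 8.75 in controls 1 to 4. Knockouts 5, 7, 9, 10 and 11 had values of 9.73, 9.87, 10.03, 9.56 and 9.92. All 5 knockouts were well above control 4 and spread around the level of the other controls. The difference was 0.18 log2 units (95% interval -0.34 to 0.70, limma adjusted p = 0.626) over all controls. It turned to -0.12 (-0.35 to 0.12, limma adjusted p = 0.457) without control 4.

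Of the proneural pair at the head of the sequence, Neurog2 (ENSMUSG00000027967_at) had the larger difference. Its log2 values were 11.77, 11.76, 11.85 and 11.45 in controls 1 to 4. Those of knockouts 5, 7, 9, 10 and 11 were 11.09, 11.60, 11.60, 11.26 and 11.60. All knockouts were below controls 1 to 3, and only knockouts 5 and 10 were also below control 4. The mean was 11.43 ± 0.24 (SD, n = 5) in the knockouts and 11.71 ± 0.17 (SD, n = 4) in the controls.

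The difference of Neurog2 was -0.28 log2 units (SE 0.13, 95% interval -0.56 to 0.01) with a limma adjusted p of 0.148. Without control 4 it was -0.36 log2 units (95% interval -0.64 to -0.08), with groups that did not overlap and a limma adjusted p of 0.0576. Groups that do not overlap were found for 33.1% of all genes in that fit, and 26.8% passed the threshold. The ratio of the knockout level of Neurog2 to that of controls 1 to 3 was 0.78. Neurog2 passed with control 4 and knockout 7 both left out (-0.40 log2 units, limma adjusted p = 0.0464, with 27.3% of all genes called). That choice was made after the data were seen. Control 4 was the lowest control and knockout 7 the highest knockout for Neurog2. Leaving out both widens the difference by construction, so that pass is no support for a change.

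Neurog1 (ENSMUSG00000048904_at), the close relative of Neurog2, ranged from 6.89 to 7.06 log2 units in the controls and from 6.72 to 7.17 in the knockouts. Knockout 7 had the highest value of all arrays, while 3 knockouts lay below every control. The difference was -0.09 log2 units (95% interval -0.30 to 0.12, limma adjusted p = 0.546).

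Among the later bHLH factors, Nhlh1 (ENSMUSG00000051251_at), which is expressed in newly formed neurons, came nearest to the threshold. Its log2 values were 9.04, 8.76, 9.04 and 8.58 in controls 1 to 4. The knockouts 5, 7, 9, 10 and 11 stood at 8.95, 9.22, 9.37, 9.03 and 9.17. Knockouts 7, 9 and 11 exceeded every control, and knockouts 5 and 10 lay just under controls 1 and 3. The difference was 0.30 log2 units (SE 0.12, 95% interval 0.03 to 0.56) with a limma adjusted p of 0.0997. It was 0.20 log2 units without control 4 (limma adjusted p = 0.203).

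The promoter of Nhlh1 is shown because it is the only one among the matched promoters that holds CAGATG, a form of the E-box that neurogenin and NeuroD proteins bind well (RefSeq, GRCm38.p6, chr1:172057547-172057846, minus strand).
Nhlh1: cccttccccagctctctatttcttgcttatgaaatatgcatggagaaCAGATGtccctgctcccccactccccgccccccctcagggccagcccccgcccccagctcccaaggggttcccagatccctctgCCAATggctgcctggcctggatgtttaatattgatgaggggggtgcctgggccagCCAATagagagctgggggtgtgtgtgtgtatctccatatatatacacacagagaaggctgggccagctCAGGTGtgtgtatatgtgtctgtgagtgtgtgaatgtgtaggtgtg
CAGATG begins at -203, a further CANNTG at 5, and CCAAT at -119 and -64. CAGATG, read on both strands and counted within CANNTG, occurs in 17.2% of all windows. For 8 of the 9 genes a promoter was matched by symbol, with 9 windows in all because Neurod4 has alternative starts. Of these 9 windows 5 held CANNTG, beside 72.3% of all windows.

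Neurod1 (ENSMUSG00000034701_at), a bHLH factor of late intermediate progenitors and young neurons, had log2 values of 10.23, 10.31, 10.31 and 9.60 in controls 1 to 4. In knockouts 5, 7, 9, 10 and 11 they were 9.86, 10.38, 10.45, 10.37 and 10.49. Control 4 and knockout 5 were low and the other 7 arrays lay close together, with 4 knockouts slightly above every control. The difference was 0.20 log2 units (95% interval -0.19 to 0.58, limma adjusted p = 0.455), and 0.03 (-0.27 to 0.32) without control 4. Without knockout 5 the difference was 0.31 log2 units (limma adjusted p = 0.181).

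Neurod4 (ENSMUSG00000048015_at), a related bHLH factor, had log2 values of 6.0005, 6.0119, 5.9256 and 4.7275 in controls 1 to 4. The knockouts, in the order 5, 7, 9, 10 and 11, had 5.42, 5.95, 5.94, 5.17 and 5.80. Control 4 was again the lowest array, and knockouts 5 and 10 lay between it and the rest. The difference of -0.01 log2 units had a wide interval, from -0.62 to 0.60 (limma adjusted p = 0.984), and without control 4 it was -0.32 (-0.70 to 0.06, limma adjusted p = 0.196). No detection call came with the table, so whether Neurog1 and Neurod4 were above background was not analysed here.

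Gadd45g (ENSMUSG00000021453_at), which encodes a small stress-response protein that slows the cell cycle, ranged from 9.86 to 10.26 log2 units in the controls and from 9.60 to 10.02 in the knockouts. The groups overlapped, and knockout 5 was below every other array. The difference was -0.18 log2 units (95% interval -0.42 to 0.07, limma adjusted p = 0.284), and -0.25 (-0.49 to -0.01, limma adjusted p = 0.113) without control 4. Of the growth-arrest genes Btg2 and Gadd45g, only Btg2 passed the threshold. The sign of the Gadd45g difference is not settled, since its interval over all controls spans both signs. Against the control males it was -0.03 log2 units.

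**Figure D2:**
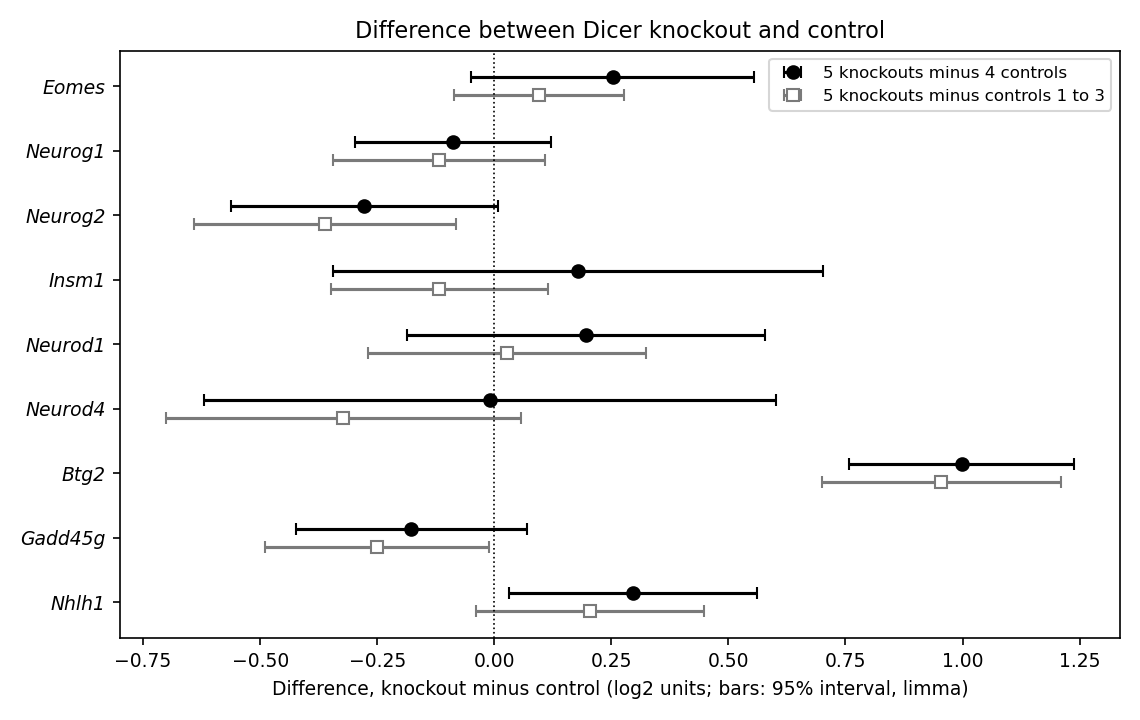
Difference between knockout and control in log2 units (horizontal axis) for each of the 9 genes, with 95% intervals from limma. Filled circles use all 4 controls and open squares controls 1 to 3. The interval of Btg2 lies wholly above that of each of the other genes, and leaving out control 4 moves Insm1 from 0.18 to -0.12 and Neurod4 from -0.01 to -0.32 log2 units.

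Because every knockout was labelled male, the genotype difference was also read against the control males alone, in a limma fit of 3 groups (knockout males, control males, control females). Btg2 was again the 1 gene of 9 that passed, while 10.5% of all genes were called in this contrast. Its level was 9.37 log2 units on average in the control males and 9.52 in the control females. The difference from the control males was 1.07 log2 units (95% interval 0.76 to 1.38, limma adjusted p = 0.00827). The other 8 genes had differences between -0.22 and 0.44 log2 units and limma adjusted p values from 0.168 to 0.955.

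This contrast rests on 2 arrays, controls 3 and 4, which differed widely for several of the genes. The label of control 3 is in doubt. No gene of the table separated the labelled females from all labelled males by 1 log2 unit or more (widest gap 0.54), whereas 7 genes separated controls 1 to 3 from the other 6 arrays by that much (widest gap 4.66). Whether control 3 is a male was not tested, since no sex-linked gene could be named. If its label is wrong, control 4 is the only control male, and the values against control males above do not hold as such. All fits of knockouts against controls without control 4 would then set male knockouts against female controls alone. Genotype and sex could not be told apart in them. With control 3 left out and control 4 as the lone control male, the differences of Neurod4 and Nhlh1 were 0.93 and 0.57 log2 units. With control 4 left out and control 3 as the lone control male, they were -0.27 and 0.11 log2 units. In that fit the difference of Btg2 was 1.01 log2 units, and Btg2 did not keep its call. A lone control male is assumed in both fits to vary like the other groups, so counts of calls are not given for them. Without control 4 the difference of Eomes was -0.04 log2 units, against 0.72 without control 3, and that of Insm1 was -0.19 against 1.07. That of Btg2 was 1.13 log2 units without control 3.

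Single arrays were low across many of these genes. Control 4 had the lowest value of the 4 controls for 9 of 9 genes, whereas it was the lowest control for 35.6% of all genes and the highest for 35.2%. Its deviation from the mean of controls 1 to 3 was -1.25 log2 units for Neurod4 and -1.19 for Insm1. The deviation was -0.68 log2 units for Neurod1 and -0.63 for Eomes, and it lay between -0.37 and -0.12 for the other 5 genes. Of all genes, 1.04% were at least 1 log2 unit lower in control 4 than in the mean of controls 1 to 3, and 5.22% at least 0.5 log2 units lower. These are descriptions of a single embryo, and the part of sex, tissue composition, stage or array quality in them was not tested. If the label of control 3 is wrong, control 4 differs in sex from controls 1 to 3 and shares the sex of the knockouts.

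Knockout 5 was the lowest knockout for 6 of 9 genes, where it was the lowest knockout for 35.2% of all genes. Its deviation from the mean of the other knockouts was -0.56 log2 units for Neurod1 and -0.42 for Neurog2. For Btg2 it was -0.36 log2 units, with a value still above every control. Knockout 10 was the lowest knockout for Insm1 and Neurod4 but the highest for Btg2. The mean of the 8 genes other than Btg2 was 8.83 log2 units in control 4, 9.11 in knockout 5 and 9.22 in knockout 10, and it ranged from 9.41 to 9.47 in the other 6 arrays, which hold both genotypes.

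**Figure D3:**
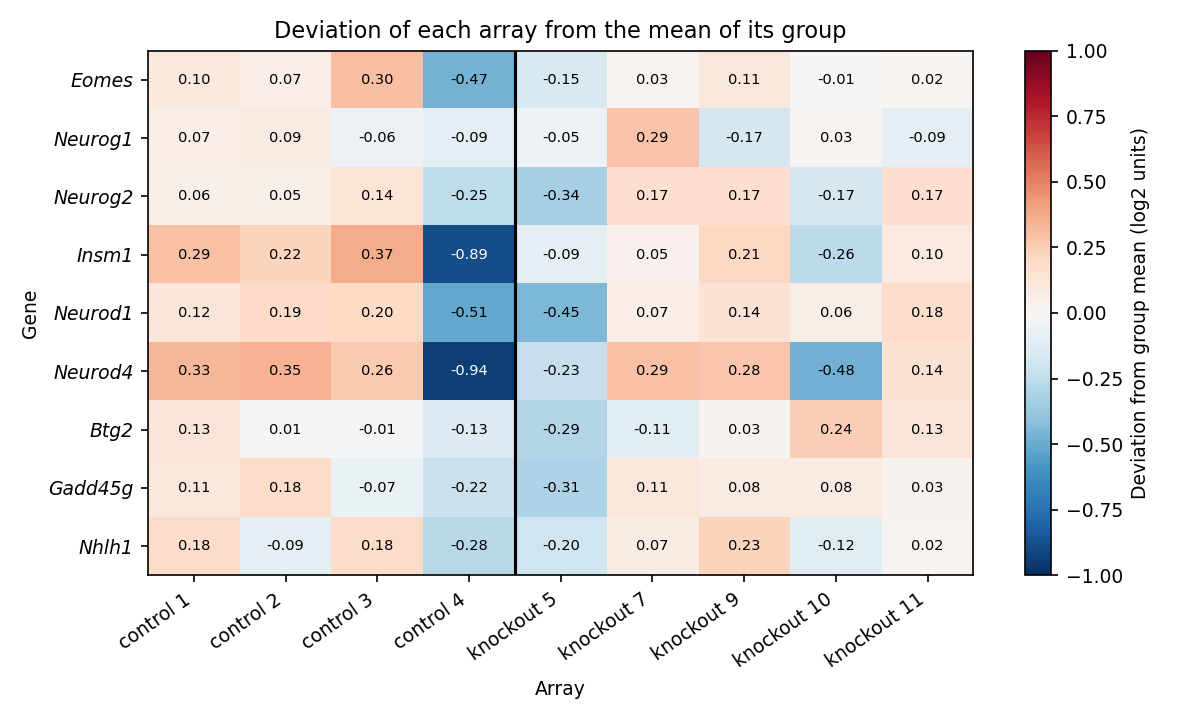
Deviation of each array from the mean of its group (colour and printed value, log2 units) for the 9 genes in rows and the 9 arrays in columns, with controls left of the vertical line and knockouts right of it. Control 4 is negative in every row, with -0.94 for Neurod4 and -0.89 for Insm1, and knockout 5 is negative in every row.

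The spread within groups differed between the genes. The pooled SD within groups was 0.49 log2 units for Neurod4 and 0.41 for Insm1, wider than for 97.8% and 96.1% of all genes. It was 0.17 for Btg2 and 0.14 for Neurog1, and the median over all genes was 0.14. Among controls 1 to 3 the SD of Insm1 was 0.08 and that of Neurod4 0.05, so most of their spread among controls came from control 4.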

How the data were processed

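RNA of 9 embryos was measured on 1-colour Affymetrix arrays. The deposited table holds log2 values that the authors had processed, with 1 value per Ensembl gene identifier and array. The affy package is named, per the submitters' processing notes, with no version; background correction, normalization and summarization are not stated there. The log2 scale follows from the range of the values, 2.72 to 14.1. Background signal in such summaries can shrink the differences of dim genes. At 2979 genes at least 1 value is exactly equal, to every deposited digit, on more than 1 array. No column lacked a sample (0 columns).

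All 12188 genes were fitted with limma (version 3.58.1, R 4.3.3; lmFit and eBayes) and p-values were adjusted over all of them; intervals are 95% limma intervals of single genes. Labels do not say how litters were shared, so the p-values treat the embryos as independent and do not model litters. They may be too small if littermates are alike. The fit was tested on simulated data. The members and lists were chosen with earlier results of these data known. The rule for named genes took all 9 members. It also took genes of 15 further lists (137 symbols), which were not analysed: the RefSeq table of 49997 genes (GRCm38.p6) has 0 Ensembl identifiers. Alternatives were quantile or median scaling, array weights, a trended robust spread, a filter that removed the dimmest 25%, sex as a covariate, the males alone and each array left out. Figures were drawn with matplotlib 3.10.9.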

Additional observations from a re-analysis of the deposited data

Results flagged for a closer look

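Single arrays stood apart from their group for 4 of the genes. Each of the 9 genes was examined in both groups (18 tests) for a highest or lowest array whose gap to its neighbour was a larger share of the group's range than the 95% limit of Dixon's ratio for that group size. Chance passes about 1 in 20 groups, and 5 passed here. Control 4 was low for Insm1 at 8.753 log2 units, for Neurod1 at 9.604 and for Neurod4 at 4.727, with ratios of 0.880, 0.890 and 0.933. Knockout 5 was low for Neurod1 at 9.857 log2 units and for Gadd45g at 9.597, with ratios of 0.811 and 0.812. The tests share arrays and are not independent.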

How the results depend on the processing

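The call of Btg2 was kept in all 17 alternative fits of knockout against control, with differences from 0.94 to 1.07 log2 units and limma adjusted p values from 4.31e-05 to 0.0251. The count of called members was 1 in each of them except with array weights, where it was 4, and without control 4 and knockout 7 together, where it was 2. The latter fit was chosen after the data were seen and added Neurog2, for which it leaves out the lowest control and the highest knockout. Leaving out each array in turn gave 1 to 1. The fits with sex as a covariate and with males only rest on the sex label of control 3, which is in doubt. Both gave the difference of Btg2 from the control males (1.07 log2 units) and are no separate check of it. With array weights, which gave control 4 a weight of 0.243 and control 1 one of 2.95, 37.4% of all genes were called, and Neurog2 (-0.26 log2 units), Gadd45g (-0.23) and Nhlh1 (0.27) were added. Against control males, leaving out each array in turn gave 0 to 5 called members. The difference of Insm1 reversed to -0.013 log2 units with array weights, ranged from -0.12 (without control 4) to 0.30 as each array was left out, and was -0.13 without control 4 and knockout 7. That of Neurod4, near 0 in all arrays, reversed to 0.33 with sex as a covariate and with males only and to 0.013 with medians subtracted, and ranged from -0.32 to 0.11 as each array was left out. The cause was not tested. Eomes, Neurog1, Neurog2, Neurod1, Gadd45g and Nhlh1 kept their sign in all 17 fits of knockout against control. Against control males only Neurog2, Neurod1 and Nhlh1 of these kept theirs in every alternative. In that contrast Gadd45g moved from -0.03 to 0.05 log2 units with quantile scaling, and Neurog1 from -0.01 to 0.03 with medians subtracted. Eomes moved from 0.34 to -0.04 log2 units without control 4. Neurod4 fell under the filter on dim genes, and the counts of further lists were not run. The scaling moved the median difference of all genes by under 0.1 log2 units. No paired analysis was possible because the labels assign the embryos to no litters or pairs.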

Other observations

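Likeness to other genes was described by Pearson's r of deviations from the group means over the 9 arrays. The 3 genes most like Eomes had r of 0.986, 0.981 and 0.979, and none of them is a member or could be named. Insm1 ranked 50 of 12187 by this measure, Neurod1 269, Neurod4 333, Nhlh1 475 and Neurog2 954. Gadd45g ranked 1873, Btg2 2983 and Neurog1 5251, so many other genes were as like Eomes as most members. The r with Eomes was 0.94 for Insm1, 0.87 for Neurod1, 0.86 for Neurod4, 0.83 for Nhlh1 and 0.74 for Neurog2. It was 0.59 for Gadd45g, 0.42 for Btg2 and 0.14 for Neurog1. Without control 4 it was 0.62 for Insm1, 0.69 for Neurod1, 0.41 for Neurod4, 0.80 for Nhlh1 and 0.74 for Neurog2. In the same 8 arrays it was 0.26 for Gadd45g and 0.30 for Btg2, and that of Neurog1 turned to -0.26. Over all 36 pairs of members the median r was 0.70, and 0.40 without control 4. All points share the arrays and control 4 weighs heavily in them, so these values are descriptions with no test. The 3 genes most like Btg2 had r of 0.966, 0.963 and 0.958. Their differences between knockout and control were -0.04, 0.93 and 0.11 log2 units in that order, with limma adjusted p values of 0.83, 0.00474 and 0.525.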
